A study of Mus musculus with 8 samples.

Results

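The inflammasome and pyroptosis genes are 10 named mouse genes among the 29955 gene names measured in every library: the sensors Nlrp3, Nlrc4 and Aim2, the adaptor Pycard, the caspases Casp1 and Casp4, the pore-forming Gsdmd, the cytokines Il1b and Il18, and the receptor antagonist Il1rn. They were chosen by name, with earlier results of these data known, and all 10 were found in the files. RNA-seq was performed on bone marrow cells of WT and Ripk3-KO mice, both given as CD57BL6/J in the sample labels. LSK cells (Lin- Sca1+ Kit+) hold the hematopoietic stem and multipotent progenitor cells, and LK cells (labeled Lin- Kit+) hold mostly myeloid progenitors. The 4 groups were WT LSK, Ripk3-KO LSK, WT LK and Ripk3-KO LK, with 2 libraries each. The study's text describes repeated X-irradiation of all these mice before the cells were collected. The sample labels, in contrast, state that the cells were taken without any treatment. Which of these is right could not be settled from the sources used here. Nothing in the sources used here says that the libraries of a group came from separate mice, so that p-values measure the spread between libraries, which may be technical, and an exact permutation of 2 against 2 libraries cannot go below 0.333. The age of the mice was not given in the sources used here. The knockout is germline, so that every cell of the mouse carries the altered gene. Some Ripk3 reads remained in the Ripk3-KO libraries, as given below. WT mice were bought from a vendor while the knockout mice were kept as a colony.

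Inflammasomes are protein platforms that turn a danger signal into inflammatory cell death. A sensor such as Nlrp3, Nlrc4 or Aim2 recruits caspase-1, in most cases through the adaptor ASC, the product of Pycard. Caspase-1 matures the cytokines IL-1 beta and IL-18 and cleaves gasdermin D, whose released fragment forms pores in the plasma membrane, which is the lytic death called pyroptosis. Casp4, also known as caspase-11 in the mouse, senses cytosolic lipopolysaccharide and cleaves gasdermin D directly. Ripk3, the kinase removed here, drives another lytic death, necroptosis, through Mlkl, and it has also been linked to activation of Nlrp3. Hematopoietic stem and progenitor cells respond to IL-1 through its receptor, with increased myeloid output.

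Depth ran from 9782166 to 16280811 reads per library, and 3 reads corresponded to a signal of 0.186 to 0.311. Signal here is the deposited value, reads relative to the library total, with a TMM library factor set within each population, and is not divided by gene length. Ripk3 reached a signal of 162 and 168 in the WT LSK libraries against 3.38 and 1.08 in the Ripk3-KO LSK libraries, and of 144 and 150 in the WT LK libraries against 16.2 and 10.6 in the Ripk3-KO LK libraries, in the direction of the labels. Every WT library held Xist reads and no reads of Eif2s3y, Uty or Kdm5d, and every Ripk3-KO library held reads of Y-linked genes, and the effects of genotype and of sex therefore cannot be told apart. The population labels went with their defining genes. Among 15 stem and progenitor markers, Ly6a (which encodes Sca1), Procr, Mecom, Hlf, Meis1 and Cd34 were higher in LSK than in LK cells, and Mpo, Elane, Ctsg, Prtn3 and Fcgr3 were lower, in both genotypes (adjusted p under 0.05, limma).

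The promoters of Il18 and Pycard are shown first, since Il18 was the member that differed between LSK and LK cells and Pycard was abundant in both. Each window runs from 250 bases before to 50 bases after the start of the RefSeq gene on GRCm38.p6 and is written 5′ to 3′ on the strand of the gene. The Il18 window is chr9:50554450-50554749 on the plus strand and the Pycard window is chr7:127993818-127994117 on the minus strand. Capitals mark the single match found in each window, ACCACA in Il18, which reads TGTGGT (the RUNX motif) on the other strand, and ACTTCCTC in Pycard, which reads GAGGAAGT (a PU.1 motif) on the other strand.
Il18: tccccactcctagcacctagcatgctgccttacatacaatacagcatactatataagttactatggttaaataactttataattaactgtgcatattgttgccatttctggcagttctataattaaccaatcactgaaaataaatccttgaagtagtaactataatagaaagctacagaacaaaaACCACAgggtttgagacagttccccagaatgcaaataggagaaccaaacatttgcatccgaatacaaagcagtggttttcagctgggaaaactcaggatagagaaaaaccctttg
Pycard: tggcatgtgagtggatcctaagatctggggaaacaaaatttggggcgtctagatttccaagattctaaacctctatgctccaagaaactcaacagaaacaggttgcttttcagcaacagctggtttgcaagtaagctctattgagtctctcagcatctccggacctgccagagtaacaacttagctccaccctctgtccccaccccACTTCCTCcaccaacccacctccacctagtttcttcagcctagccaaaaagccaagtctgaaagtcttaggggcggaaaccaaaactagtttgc
RUNX factors and PU.1 are transcription factors of blood cells. Promoter windows were found for 9 of the 10 genes (13 windows, all but Gsdmd), and 4 motifs were searched on both strands. TGTGGT was found in Il18 and Nlrc4 and in 16.8% of all 32851 promoter windows, and GAGGAAGT in Aim2 and Pycard and in 3.20%. The NF-kB motif, GGG and TTCC with 3 bases of any kind between them, was found in Casp4 and Il1rn and in 5.56% of all windows. The interferon response element, searched as a pair of GAAA with 2 bases of any kind between them, was found in none of the 13 windows and in 3.44% of all. These matches describe letters in the windows, and binding was not measured.

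The genes lie at scattered sites of GRCm38. Casp1 (chr9:5298517-5307265) and Casp4 (chr9:5308828-5336783) are neighbors on the plus strand of chromosome 9, which also carries Il18 (chr9:50554827-50581840, plus). Nlrp3 is at chr11:59541568-59566956 (plus), Nlrc4 at chr17:74425438-74459142 (minus), Aim2 at chr1:173350879-173466040 (plus), Pycard at chr7:127989708-127993867 (minus), Gsdmd at chr15:75862327-75867408 (plus), Il1b at chr2:129364570-129371139 (minus) and Il1rn at chr2:24336853-24351494 (plus). These positions come from the GENCODE annotation, which is a later build than the mm9 named in the submitters' processing notes, and all 10 genes are annotated as protein coding. The RefSeq start of Il18 lies before the start given here. Il18 shares its span with Bco2 and Tex12 on the other strand, Aim2 with Cadm3, Pycard with Gm45205, and Il1b with Il1bos, and Aim2 also has a near-identical copy in Gm7871. Since the strand setting of the counting was not given in the sources used here, reads of such pairs may not be told apart. Tex12 stayed between 0 and 2.88 signal in the 8 libraries, and Bco2 between 5.36 and 12.5 in LSK libraries, below Il18 in each of them. In LK libraries Bco2 was at 1.68 to 5.40 signal, above Il18 in WT LK replicate 1 (2.38 against 0.34) and Ripk3-KO LK replicate 2 (5.40 against 2.42). Cadm3 was at 2.25 to 13.8 signal in LSK and 0 to 0.824 in LK libraries, below Aim2 in each. Nlrc4 overlaps the pseudogene CT033749.1 on its own strand.

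Levels of the 10 genes were compared as CPM on a scale set over all 8 libraries (counts of reads per library total, with TMM factors computed once), divided by the length in kb of the principal annotated transcript. Gsdmd had the highest mean in all 4 groups (its libraries overlapped those of Casp1 in Ripk3-KO LSK cells), with 60.6 ± 1.56 CPM per kb (SD, n = 2) in WT LSK, 65.2 ± 24.0 in Ripk3-KO LSK, 80.1 ± 4.90 in WT LK and 66.4 ± 3.45 in Ripk3-KO LK cells. Pycard and Casp1 followed, at 31.7 ± 1.05 and 28.9 ± 11.3 in WT LSK cells, and at 42.8 ± 5.05 and 37.5 ± 11.9 in WT LK cells. In Ripk3-KO cells Casp1 was at 45.2 ± 5.48 in LSK and 43.3 ± 4.68 in LK, and Pycard at 34.5 ± 1.65 and 35.7 ± 2.35. The libraries of Casp1 and Pycard overlapped in both WT groups, so that their order was not resolved there. In LSK cells Il18 belonged to the same upper group, at 42.9 ± 19.4 in WT and 40.4 ± 1.33 in Ripk3-KO, whereas in LK cells it was at 1.48 ± 1.45 and 3.83 ± 0.86. The executor, the adaptor and caspase-1 were thus the well-expressed core in both populations, joined by Il18 in LSK cells.

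The sensors were lower. Aim2, which binds cytosolic DNA, was at 6.73 ± 0.48 to 12.0 ± 0.09 CPM per kb and led the sensors in every group. Nlrc4, which acts in the response to bacterial flagellin and secretion systems, was at 1.11 ± 0.57 to 3.03 ± 2.05, and Nlrp3 at 0.55 ± 0.17 to 1.68 ± 0.47. Casp4 was at 2.12 ± 0.65 to 6.91 ± 2.20, Il1b at 0.94 ± 0.53 to 3.57 ± 1.41, and Il1rn, the secreted blocker of the IL-1 receptor, was the least abundant at 0.36 ± 0.51 to 0.63 ± 0.26. Among these low genes the libraries of many neighbors in the order overlapped, such as Nlrc4 and Nlrp3 in WT LSK, and Il1b and Nlrp3 in all groups in which they were neighbors. Lengths bear on this order. With the union of all annotated exons, Gsdmd was still the highest and Il1rn the lowest in every group. Casp4, however, was at 1.36 in place of 3.52 CPM per kb in WT LSK cells and moved from rank 5 to rank 9 in WT LK cells. Il1rn was at 0.28 in place of 0.63 in WT LSK cells. For Pycard both lengths are 3800 bases, so that this check could not change its level. Without division by length, Pycard was above Gsdmd in mean CPM in every group. The means were 120 against 109 in WT LSK and 131 against 117 in Ripk3-KO LSK cells. In LK cells they were 163 against 144 in WT and 136 against 119 in Ripk3-KO. The order of Gsdmd and Pycard thus depends on the lengths used.

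**Figure D1:**
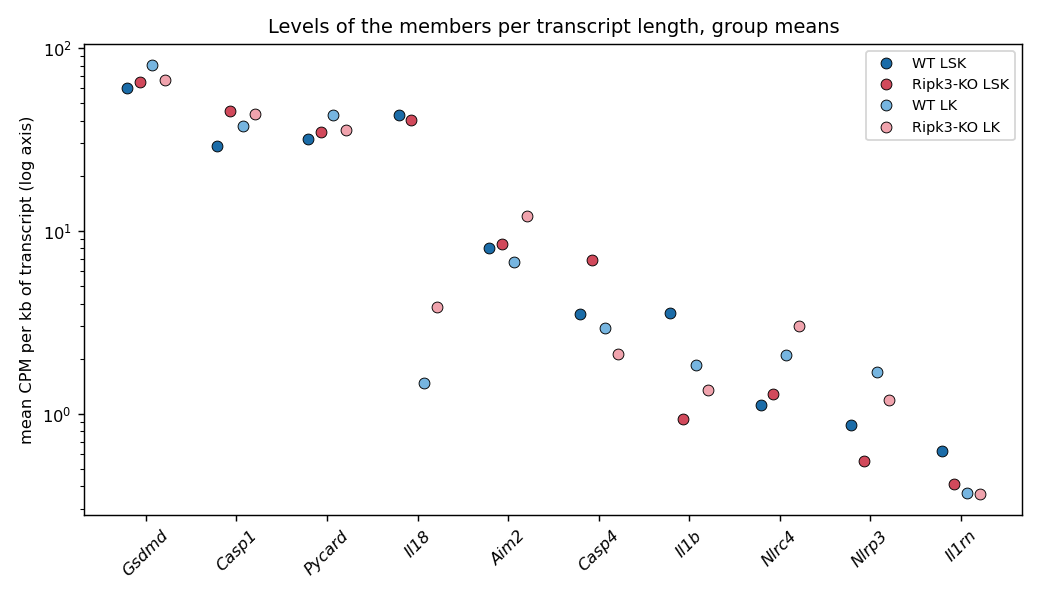
Mean level of each gene in the 4 groups, as CPM per kb of transcript on a log axis; each point is the mean of 2 libraries. Gsdmd, Casp1 and Pycard sit near the top in all groups, and Il18 lies at 42.9 and 40.4 in the LSK groups against 1.48 and 3.83 in the LK groups.

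The first comparison asked whether loss of Ripk3 changed these transcripts in LSK cells. None of the 10 genes passed an adjusted p of 0.05 (limma, over all 16817 genes tested), while 2.16% of all tested genes did. At an unadjusted p under 0.05 there were 2 members with limma, Casp1 and Il1b, against 17.9% of all tested genes. On the recovered reads edgeR and DESeq2 called 0 of the 10, and 0 had an unadjusted p under 0.05 with either. The median log2 fold change was 0.05 over the 10 genes and -0.01 over all genes. For 5 of the 10 members the libraries of the genotypes did not overlap, against 44.6% of all tested genes, a share near the background.

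Casp1 reached a signal of 35.7 and 62.9 in the WT LSK libraries and of 69.9 and 84.0 in the Ripk3-KO LSK libraries. The Ripk3-KO libraries were both the higher ones, while the WT libraries were far apart. The log2 fold change was 0.68 (SE 0.30, 95% interval 0.06 to 1.30, adjusted p = 0.239, limma). Casp4 reached a signal of 4.57 and 6.94 in WT and of 8.68 and 13.9 in Ripk3-KO libraries. These groups did not overlap either, and the log2 fold change was 0.85 (95% interval -0.36 to 2.06, adjusted p = 0.460). Il1b reached a signal of 3.97 and 7.04 in WT and of 2.01 and 0.88 in Ripk3-KO libraries. Both Ripk3-KO libraries were below both WT libraries, with a log2 fold change of -1.41 (SE 0.62, 95% interval -2.71 to -0.12, adjusted p = 0.241).

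Pycard and Gsdmd, the abundant members, had the narrowest intervals. The signal of Pycard was 134 and 140 in WT and 143 and 155 in Ripk3-KO LSK libraries, and the 95% interval of its log2 fold change ran from -0.30 to 0.53. The signal of Gsdmd was 126 and 121 in WT and 166 and 98.8 in Ripk3-KO libraries, which overlapped, with an interval of -0.43 to 0.53. Changes of 2-fold lay outside these intervals, whose spread is moderated over all genes. The Ripk3-KO libraries of Gsdmd were far apart, and with 1 library left out its estimate ran from -0.32 to 0.42. For Aim2 the signal was 28.8 and 23.5 in WT and 31.7 and 22.6 in Ripk3-KO libraries, with an interval of -0.69 to 0.76. The groups overlapped and a change of 2-fold in either direction was outside the interval for this gene too. Il18 had 28.6 and 55.4 in WT and 38.3 and 40.7 in Ripk3-KO libraries, with the knockout values between the WT values and an interval of -1.12 to 1.09.

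The low members could hide larger changes. Nlrp3 reached a signal of 3.08 and 4.87 in WT and of 3.05 and 1.96 in Ripk3-KO LSK libraries, with the Ripk3-KO libraries just below and an interval of -1.74 to 0.74. Nlrc4 had 8.14 and 3.83 in WT and 9.97 and 3.81 in Ripk3-KO libraries, with the replicates of each group further apart than the groups and an interval of -1.15 to 1.41. Il1rn had 2.28 and 1.24 in WT libraries, 0 reads in Ripk3-KO replicate 1 (a count of 0 allows up to 0.241 signal, counting error only) and 2.35 in Ripk3-KO replicate 2. The groups of Il1rn overlapped.

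**Figure D2:**
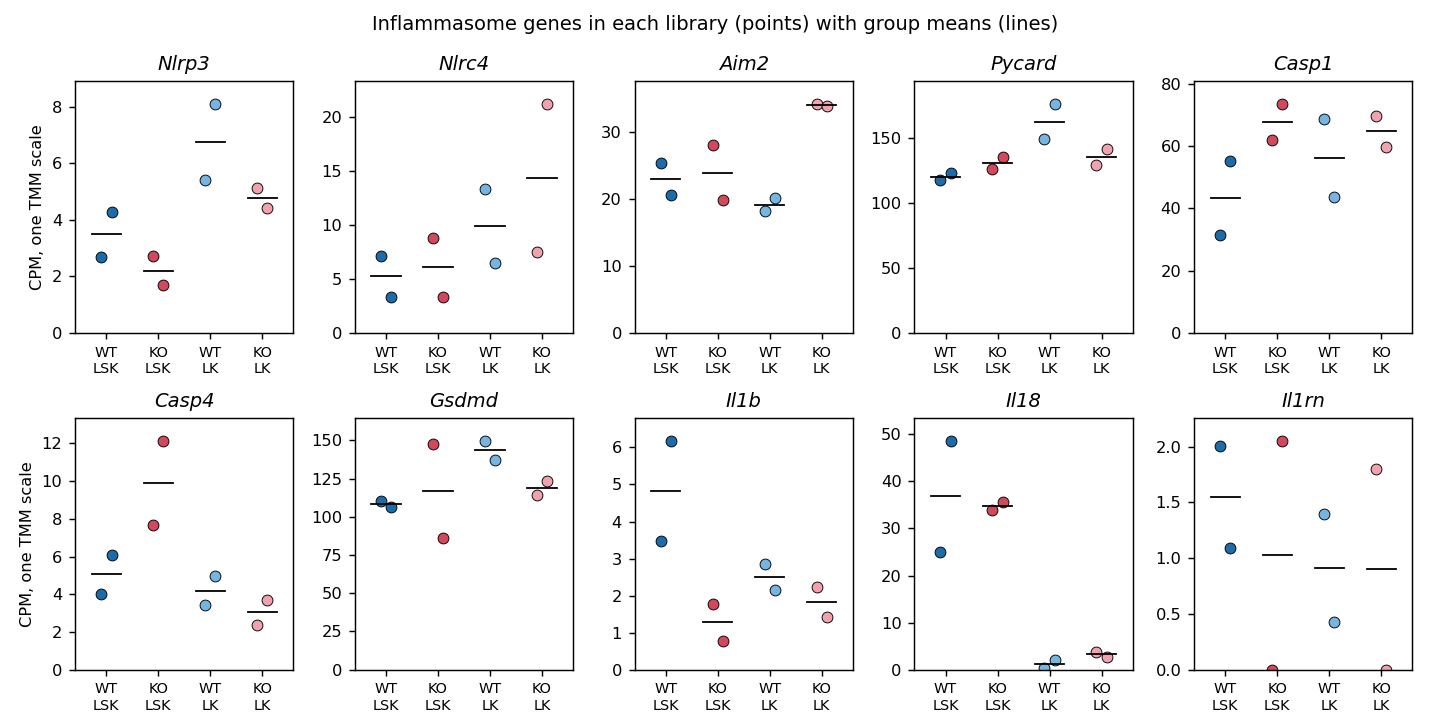
CPM of each gene in each of the 8 libraries, on the scale set over all libraries; points are libraries, lines are means of 2 libraries, and KO stands for Ripk3-KO. Il18 lies between 25.1 and 48.6 in LSK libraries and between 0.39 and 3.82 in LK libraries.

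In LK cells none of the 9 members tested passed (Il1rn, with a mean signal under 1, was not tested), against 0.473% of the 13949 genes tested. With limma an unadjusted p under 0.05 was found for 1 member, Aim2, against 6.56% of all tested genes. On the recovered reads edgeR and DESeq2 called 0, and both gave an unadjusted p under 0.05 for Aim2 and Il18. The median log2 fold change was -0.27 over the 9 members and 0.01 over all genes. The groups did not overlap for 5 members, beside 40.0% of all tested genes. Aim2 reached a signal of 15.9 and 17.8 in WT and of 30.1 and 29.5 in Ripk3-KO LK libraries. Replicates were close together and the Ripk3-KO libraries were higher, with a log2 fold change of 0.79 (SE 0.35, 95% interval 0.05 to 1.52) and an adjusted p of 0.700 (limma). Il18 reached a signal of 0.34 and 1.91 in WT and of 3.36 and 2.42 in Ripk3-KO LK libraries, which are 5 and 25 reads against 53 and 39 reads. The Ripk3-KO libraries were again the higher ones, with a log2 fold change of 0.97 (95% interval -0.13 to 2.07, adjusted p = 0.820).

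For the core genes in LK cells, Casp1 reached a signal of 60.3 and 38.6 in WT and of 61.4 and 52.2 in Ripk3-KO libraries. The groups overlapped, with an interval of -0.39 to 0.84. Pycard had 131 and 156 in WT and 114 and 124 in Ripk3-KO libraries, with an interval of -0.68 to 0.14. Gsdmd had 131 and 122 in WT and 101 and 108 in Ripk3-KO libraries, with an interval of -0.75 to 0.20. For both, the Ripk3-KO libraries were the lower ones, and a change of 2-fold was outside the interval.

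The remaining members were low in LK cells. Casp4 reached a signal of 2.99 and 4.43 in WT and of 2.09 and 3.23 in Ripk3-KO libraries. Nlrp3 had 4.76 and 7.17 in WT and 4.5 and 3.85 in Ripk3-KO libraries, the latter both below the former. Nlrc4 had 11.7 and 5.72 in WT and 6.60 and 18.5 in Ripk3-KO libraries, again with replicates further apart than groups. Il1b had 2.51 and 1.91 in WT and 1.97 and 1.24 in Ripk3-KO libraries, which overlapped. Il1rn had 1.22 and 0.38 in WT libraries, 1.59 in Ripk3-KO replicate 1 and 0 reads in Ripk3-KO replicate 2 (up to 0.186 signal).

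**Figure D3:**
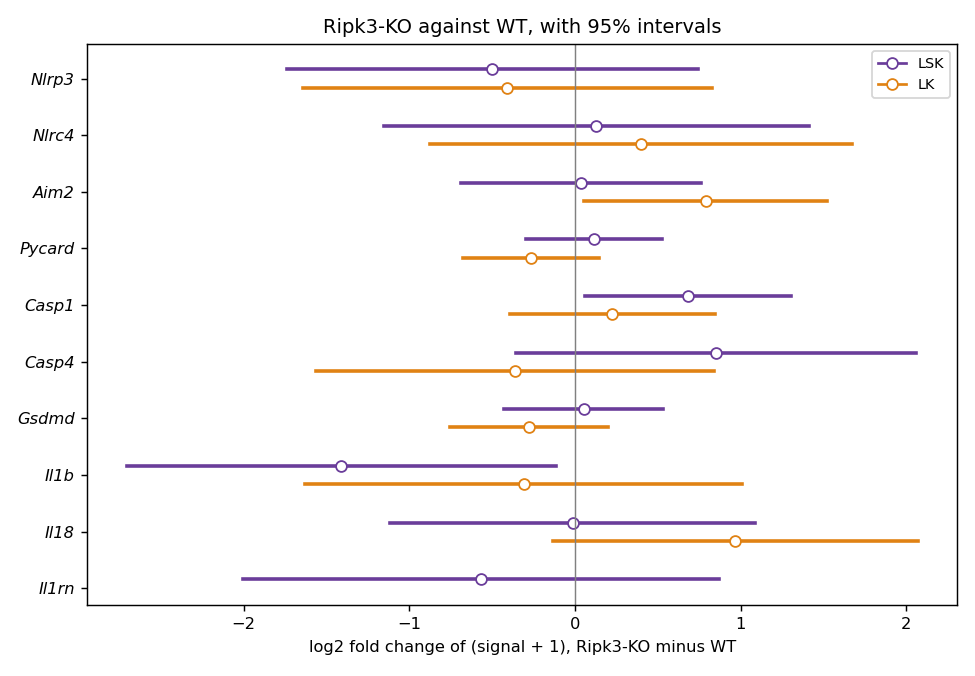
Log2 fold change of signal + 1, Ripk3-KO minus WT, for each gene in LSK (purple) and LK (orange) cells, with 95% intervals from limma; open circles did not pass an adjusted p of 0.05. No gene passed in either population, and the intervals of Pycard and Gsdmd are the narrowest.

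With both populations as a single comparison of 4 against 4 libraries, 0 of the 10 members passed, against 1.64% of the 15901 genes tested. Casp1 had the smallest unadjusted p, with a log2 fold change of 0.45 (SE 0.21, 95% interval 0.02 to 0.89, adjusted p = 0.349, limma). Whether the genotype effects in the populations differ was also tested, and 0 of 10 members passed (0 at an unadjusted p under 0.05), against 0.358% of the same 15901 genes. For Casp4, whose estimates had opposite signs, this difference was 1.22 (95% interval -0.49 to 2.92), and for Il18 it was -0.98 (95% interval -2.53 to 0.57). Neutrophil markers moved with the genotype, which cannot be told apart from sex here. Of 11 markers, 8 (such as Ltf, Ngp, Camp and Lcn2, which encode granule proteins) were higher in Ripk3-KO LSK cells, where 2.16% of all tested genes passed. In Ripk3-KO LK cells 5 of 11 were higher, where 0.473% of all tested genes passed. Fewer passed in LK cells without WT LK replicate 1, Ripk3-KO LK replicate 1 or Ripk3-KO LK replicate 2. Without a trend in the variance, 5 passed in LSK cells and 0 in LK cells. Their summed signal was 721 to 771 in WT and 2389 to 2817 in Ripk3-KO LSK libraries, and 795 to 802 in WT and 1715 to 1719 in Ripk3-KO LK libraries, with no marker at 0 in all libraries. Of the monocyte or macrophage markers 0 of 11 passed in either population. The part of these cells in the values of the 10 genes was not tested, and in bulk samples fewer cells of a type and less RNA per cell cannot be told apart.

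The second question was how the 10 genes differ between LSK and LK cells. Il18 was the member that separated the populations, and it did so in both genotypes. IL-18 is made as an inactive precursor and released after cleavage by caspase-1. On the scale set over all libraries, Il18 was at 25.1 and 48.6 CPM in the WT LSK libraries and at 0.39 and 2.15 CPM in the WT LK libraries. It was at 34.0 and 35.6 CPM in the Ripk3-KO LSK libraries and at 3.82 and 2.77 CPM in the Ripk3-KO LK libraries. Every LSK library was above every LK library by a wide margin. The mean was 29.0-fold higher in LSK cells of WT mice and 10.6-fold higher in LSK cells of Ripk3-KO mice. On the log2(CPM + 1) scale, which understates changes of low genes, the difference was 4.11 in WT (SE 0.54, 95% interval 2.98 to 5.23, adjusted p = 9.88e-06, limma) and 3.07 in Ripk3-KO (SE 0.54, 95% interval 1.96 to 4.18, adjusted p = 0.000225). It passed under all 17 alternatives in each genotype, with log2 fold changes of 3.51 to 5.06 and adjusted p of 1.05e-14 to 0.00706 in WT, and of 2.89 to 3.45 and 1.8e-08 to 0.0126 in Ripk3-KO.

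Among the 10 members tested in WT, 1 passed, against 23.9% of all 15950 genes, and among the 9 tested in Ripk3-KO, 1 passed, against 20.2% of all 15237 genes. Libraries of the populations did not overlap for 6 members in WT (3 higher and 3 lower in LSK; 64.0% of all genes did not overlap) and for 4 members in Ripk3-KO (57.5% of all genes). The median log2 fold change of the members was -0.09 in WT and -0.07 in Ripk3-KO, beside 0.08 and 0.00 over all genes. Without TMM factors the median of all genes was 0.46 in WT and 0.29 in Ripk3-KO, so that small differences between the populations depend on the scaling.

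Beyond Il18, Pycard came closest in WT. It was at 118 and 123 CPM in WT LSK and at 149 and 176 CPM in WT LK libraries, all LSK values below all LK values, with a log2 fold change of -0.43 (95% interval -0.84 to -0.01) and an adjusted p of 0.120. With median-centered libraries it passed (log2 fold change -0.55, adjusted p = 0.0445), and over its 17 alternatives the adjusted p ran from 0.0445 to 0.983. In Ripk3-KO cells the interval was -0.47 to 0.37, and the sign turned without TMM factors. Casp4 was at 7.69 and 12.1 CPM in Ripk3-KO LSK and at 2.38 and 3.70 CPM in Ripk3-KO LK libraries. The LSK libraries were the higher ones, with a log2 fold change of 1.42 (95% interval 0.22 to 2.63, adjusted p = 0.0925), and the gene passed when CPM were used without TMM factors (1.69, adjusted p = 0.0484; adjusted p of 0.0484 to 0.360 over its alternatives). In WT cells the interval for Casp4 was -1.0 to 1.43.

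The intervals of Gsdmd, Casp1, Aim2, Nlrp3, Nlrc4, Il1b and Il1rn spanned 0 wherever tested. For Gsdmd they were -0.88 to 0.08 in WT and -0.56 to 0.41 in Ripk3-KO, and for Casp1 -1.01 to 0.23 and -0.56 to 0.68, with signs that turn with the scaling. A 2-fold difference between the populations was outside the interval of Gsdmd in both genotypes and of Casp1 in Ripk3-KO. For Aim2 they were -0.49 to 0.98 and -1.24 to 0.22. Nlrp3, at 2.70 to 8.10 CPM in WT libraries, gave -2.03 to 0.45 in WT and -2.10 to 0.38 in Ripk3-KO, and Nlrc4 -2.07 to 0.49 and -2.34 to 0.19. Il1b gave -0.59 to 1.99 in WT and -1.64 to 0.97 in Ripk3-KO, and Il1rn, not tested in Ripk3-KO, gave -0.99 to 1.86 in WT. Cell type markers moved with the populations, where 23.9% of all genes passed in WT and 20.2% in Ripk3-KO. The study places granulocyte/monocyte, megakaryocyte and erythroid progenitors within LK cells, so that such markers need not come from cells outside the sort. Of 11 neutrophil markers, Retnlg was higher in LSK cells in both genotypes, Cd177, Cxcr2 and S100a8 were lower in WT, and Cxcr2 was lower in Ripk3-KO. Of the monocyte or macrophage markers, 5 of 11 were lower in LSK than in LK cells in WT and 6 of 11 in Ripk3-KO, with Csf1r, Ly6c2 and Ccr2 among them. Of the dendritic cell markers, 4 of 8 were higher in LSK cells in WT and 3 of 6 in Ripk3-KO, with Cd74, Flt3 and H2-Ab1 in both. The study's staining for stem and progenitor cells includes CD135, the product of Flt3, so that this gene need not come from dendritic cells. Erythroid markers were lower in LSK cells for 4 of 6 in both genotypes, and in Ripk3-KO the globin genes Hba-a2 and Hbb-b1 were higher. B cell markers were higher for 2 of 7 in WT and 0 of 6 in Ripk3-KO, T or NK cell markers for 1 of 7 and 3 of 7 (with Nkg7 lower in both). Megakaryocyte or platelet markers were lower for 1 of 6 and 2 of 6, and mast cell or basophil markers for 3 of 7 and 4 of 7 (with 1 higher in WT). The calls of the neutrophil list by genotype are given above. By genotype the dendritic cell list gave 1 call of 8 tested in LSK cells (Flt3) and 1 of 6 in LK cells (Cd74), both higher in Ripk3-KO. The remaining lists of this paragraph gave 1 call in LSK cells (the mast cell gene Cma1, of 6 tested in its list, lower in Ripk3-KO) and 0 in LK cells. Of all tested genes, 2.16% passed by genotype in LSK cells and 0.473% in LK cells. The part of these cell types in the difference of Il18 was not tested.

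**Figure D4:**
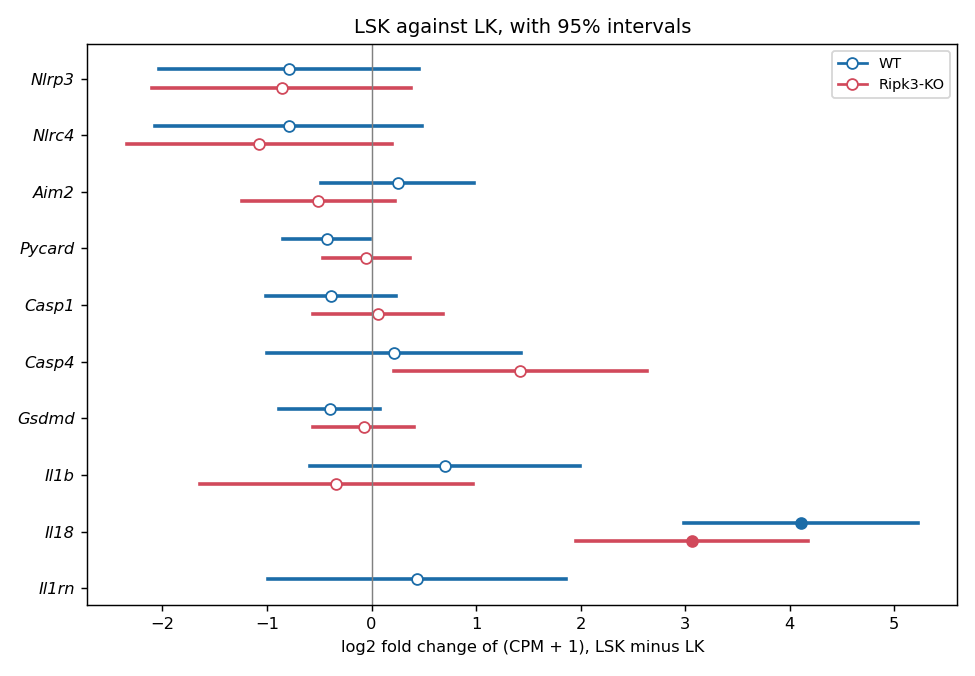
Log2 fold change of CPM + 1, LSK minus LK, for each gene in WT (blue) and Ripk3-KO (red) cells, with 95% intervals from limma; filled circles passed an adjusted p of 0.05. Il18 is the filled gene in both genotypes, at 4.11 and 3.07.

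The genes whose pattern over the 8 libraries was most like that of each member were sought by the mean absolute difference of log2(CPM + 1), centered per gene, among 10699 genes. For Il18 these were Msi2, which encodes an RNA-binding protein of stem cells (0.25), and H2-Eb1, which encodes an MHC class II chain (0.29). Msi2 was at 22.1, 25.6, 30.4 and 34.6 CPM in the LSK libraries and at 0.39, 1.72, 6.84 and 2.42 CPM in the LK libraries. Like Il18, it was lowest in the WT LK libraries. For Pycard they were Polr2j (0.05) and Med23 (0.06), for Gsdmd Prpsap1 (0.06) and Fuca1 (0.08), for Casp1 Ddhd2 (0.10) and Zfp672 (0.11), and for Aim2 Nfrkb (0.10) and Ddx59 (0.11). For Casp4 they were Nr1d2 (0.12) and AK078466 (0.16), and for Nlrc4 Vsig10l (0.19) and Polrmt (0.23). Among the members themselves, the closest pair was Pycard and Gsdmd (0.17). Such a ranking is descriptive, since all genes share the same 8 libraries.

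The wider pathway was followed with 75 further genes in 5 lists (other sensors, caspases and gasdermins, regulators, IL-1 family ligands and receptors, and IL-1 receptor signaling), of which 69 were found. By genotype 0 of 62 passed in LSK cells, 0 of 60 in LK cells, 0 of 62 over both populations, and 0 of 62 for the difference of the effects, all by limma, against the 2.16%, 0.473%, 1.64% and 0.358% of all genes given above. At an unadjusted p under 0.05 there were 11, 3, 5 and 6 of these genes, beside 17.9%, 6.56%, 13.6% and 10.1% of all tested genes. The median log2 fold change was 0.10 in both LSK and LK cells. DESeq2 called 2 in LSK cells, Nlrp1a and Il1r2, and edgeR 0. Il1r2, the decoy receptor that captures IL-1 without signaling, reached a signal of 11.6 and 21.5 in the WT LSK libraries and of 3.62 and 2.25 in the Ripk3-KO LSK libraries. The Ripk3-KO libraries were both below, with a log2 fold change of -2.12 (SE 0.61) and an adjusted p of 0.0722 (limma). Nlrp1a, a sensor with near relatives in Nlrp1b and Nlrp1c-ps among which reads may be split, reached a signal of 31.2 and 25.4 against 12.0 and 8.61, with a change of -1.38 on the log2 scale (SE 0.41, adjusted p = 0.0808). Il1a, which encodes the other IL-1 receptor agonist, had reads in Ripk3-KO LSK replicate 1 alone (4.98 signal) and was listed at 0 in the other 7 libraries.

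Other genes among the 2 with the largest estimates of each list in LSK cells did not pass either. For Tab2 and Map3k7, which act below the IL-1 receptor, the log2 fold changes were 1.0 (adjusted p = 0.0958) and 1.0 (adjusted p = 0.191, limma). For the guanylate-binding protein Gbp5 it was 1.56 and for the kinase Mark4 1.42. For P2rx7, the ATP receptor upstream of Nlrp3, it was -0.96, and for Nlrp10 1.27. In LK cells the 2 largest estimates of each list were those of Mark4 (-1.11), Nlrp1b (0.98), Nlrp12 (-0.90), Gbp5 (0.88), Il1r2 (0.79), Il18r1 (0.78), Map3k7 (-0.63), Casp12 (0.48), Dfna5 (-0.46) and Myd88 (-0.43), with adjusted p of 0.834 and above (limma). Over all 60 pathway genes tested in LK cells the smallest adjusted p was 0.584.

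Between the populations the pathway genes moved in both directions. In WT 10 of 61 were higher and 11 lower in LSK than in LK cells, and in Ripk3-KO 12 of 62 were higher and 13 lower, beside 23.9% and 20.2% of all tested genes that passed in either direction. Without TMM factors the counts were 16 higher and 5 lower in WT, and 15 higher and 7 lower in Ripk3-KO. The median log2 fold change was 0.01 in WT and 0.09 in Ripk3-KO. Altogether 30 genes passed in at least 1 genotype and 16 in both, 8 of them higher and 8 lower in LSK cells. Over the alternatives 12 to 25 genes passed in WT and 13 to 26 in Ripk3-KO, with the lowest counts without a trend in the prior variance (7 higher and 5 lower in WT, 7 and 6 in Ripk3-KO). In WT, 13 genes passed without WT LSK replicate 2 and 14 without WT LK replicate 1, and in Ripk3-KO 15 passed without Ripk3-KO LK replicate 1 and 15 without Ripk3-KO LK replicate 2. The genes Mefv, Gbp2, Serpinb1a, Card9, Trim30a, Pyhin1 and Il1r1 passed in both genotypes under each of the 17 alternatives. No passing gene changed its sign under any of them.

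Receptors for the cytokines that inflammasomes release were among the genes higher in LSK cells. Il1r1, the signaling receptor of IL-1, was at 33.0 and 55.6 CPM in WT LSK and at 9.84 and 3.70 CPM in WT LK libraries, and at 31.1 and 43.0 CPM in Ripk3-KO LSK and 1.95 and 5.91 CPM in Ripk3-KO LK libraries. Every LSK library was above every LK library, with log2 fold changes of 2.62 (SE 0.51, adjusted p = 0.000815, limma) and 3.06 (SE 0.51, adjusted p = 0.000133). Il18r1, the ligand-binding chain of the IL-18 receptor, was at 23.9 and 12.7 CPM in WT LSK and at 0.93 and 1.64 CPM in WT LK libraries. The log2 fold change was 3.03 (SE 0.60, limma, adjusted p = 0.000843). In Ripk3-KO its log2 fold change was 1.57 (adjusted p = 0.0653). The decoy Il1r2 passed in WT (2.31, adjusted p = 0.00898), and was lower in Ripk3-KO LSK libraries as given above. It did not pass in WT without WT LSK replicate 2 (1.89) or without WT LK replicate 1 (2.02). Il1rl1, the IL-33 receptor, was lower in LSK cells (-1.91 in WT and -1.97 in Ripk3-KO), as was Il1rap, the shared coreceptor, in Ripk3-KO (-1.41), and the negative regulator Sigirr was higher in Ripk3-KO (0.82). These calls rest on single libraries in part: Il1rl1, Il1rap and Sigirr failed to pass without at least 1 library of their own contrast. Without TMM factors Il1rl1 lost its call in both genotypes and Il1rap in Ripk3-KO.

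Sensors and regulators divided between the populations. Mefv, which encodes pyrin, was at 1.92 and 1.64 CPM in WT LSK and at 39.7 and 37.4 CPM in WT LK libraries, with log2 fold changes of -3.83 in WT (SE 0.50) and -5.18 in Ripk3-KO (SE 0.50). Card9, an adaptor of fungal recognition, had log2 fold changes of -2.34 and -3.45, and Pyhin1, of the family of interferon-inducible DNA-binding proteins to which Aim2 belongs, of -2.45 and -3.53. Serpinb1a, which encodes an inhibitor of neutrophil serine proteases, differed by -1.07 and -1.05. In the other direction, the guanylate-binding protein gene Gbp2 was at 78.4 and 47.6 CPM in WT LSK and at 13.2 and 14.7 CPM in WT LK libraries, with log2 fold changes of 2.05 (SE 0.34) and 2.03 (SE 0.34). Trim30a was higher by 1.42 and 1.28. Casp12, a relative of the inflammatory caspases, was at 33.6 and 25.6 CPM in WT LSK and at 1.78 and 3.44 CPM in WT LK libraries (3.11 in WT and 2.57 in Ripk3-KO), and did not pass in Ripk3-KO without Ripk3-KO LK replicate 2 (1.63).

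The nucleic acid sensor Zbp1, which can engage Ripk3, was higher in LSK cells (2.23 in WT and 1.95 in Ripk3-KO), as were Nlrc5 (1.39 and 1.47), the Aim2 relative Mndal (0.90 and 1.45) and Txnip (1.16 and 1.77), a binding partner of Nlrp3. Nlrx1 (-1.30 and -1.66), Gbp3 (-0.97 and -0.93) and Dpp9 (-1.44 and -0.85), a protease that restrains Nlrp1, were lower. Of these, Zbp1, Nlrc5, Nlrx1 and Gbp3 lost their call in both genotypes when some library was left out, Mndal in WT and Dpp9 in Ripk3-KO. Without TMM factors Gbp3 lost its call in both genotypes, Nlrx1 in WT and Dpp9 in Ripk3-KO. Among the genes that passed in 1 genotype were Brcc3 (-0.75) and Map3k7 (-1.40) in WT, and Naip2 (-1.74), Ninj1 (0.62), Irgm1 (0.83), Dpp8 (-1.66), Irak4 (-0.80), Tollip (-0.91) and Tab2 (0.88) in Ripk3-KO. Of these, Dpp8 passed whichever library was left out. Each of the others failed to pass without at least 1 library of its own contrast, such as Ninj1 without Ripk3-KO LK replicate 1 (0.36). Without TMM factors Brcc3 and Map3k7 lost their call in WT, and Irak4 and Tollip in Ripk3-KO. Ninj1 mediates the final rupture of the membrane in lytic death, and Naip2 is the partner of Nlrc4, with near-identical family members.

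**Figure D5:**
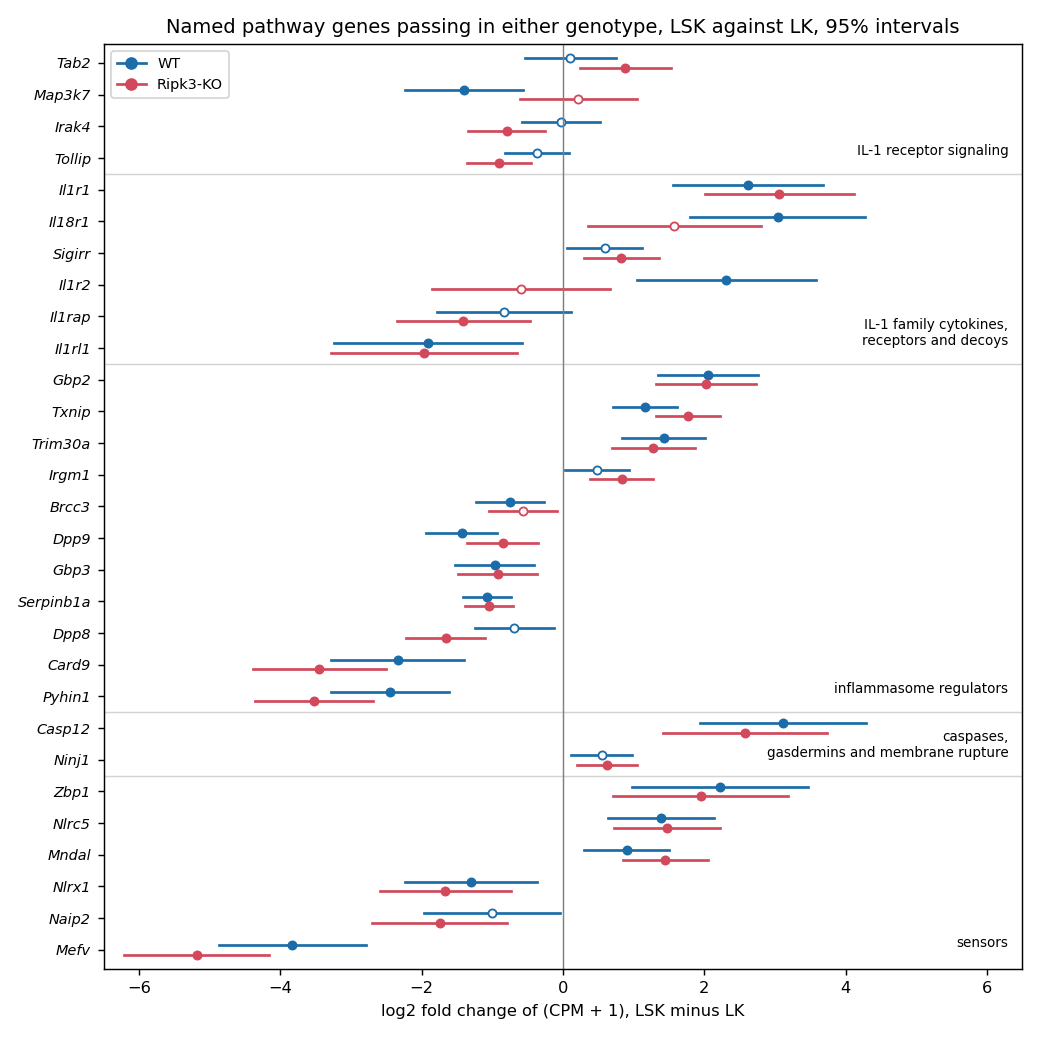
Log2 fold change of CPM + 1, LSK minus LK, for the named pathway genes that passed in WT (blue) or Ripk3-KO (red) cells, with 95% intervals from limma; filled circles passed an adjusted p of 0.05. Mefv, Card9 and Pyhin1 lie furthest to the left, and Casp12, Il1r1 and, in WT, Il18r1 lie furthest to the right.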

How the data were processed

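Bone marrow LSK and LK cells of WT and Ripk3-KO mice were measured by stranded poly(A) RNA-seq (TruSeq Stranded mRNA) in 8 libraries, 2 per group, grouped by their labels. The deposited values are named FPKM in the file headers, but per the file values they are a signal that the authors scaled as reads per gene relative to the library total (as CPM) with TMM factors, computed for LSK and LK cells separately and without division by length. Mapping with TopHat to mm9 is given in the submitters' processing notes, and the counter, the annotation and the strand setting were not given in the sources used here. Of all values above 0, 100% were whole multiples of a single step per library (tolerance 0.01 reads), so that reads were recovered, 9782166 to 16280811 per library. No column was left without a sample. For LSK against LK, reads were scaled to CPM with TMM factors over all 8 libraries (1.11 to 1.17 in LSK and 0.823 to 0.949 in LK libraries).

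Genes with a mean of at least 1 over the libraries of a comparison were tested on log2(value + 1) with limma 3.58.1 (R 4.3.3; 4 group means, trend in the prior variance, two-sided, Benjamini-Hochberg adjustment over all genes tested, threshold 0.05). A fold change on this scale understates the change of low genes. The alternatives were a pseudocount of 0.1, no filter, a mean of at least 5, the replicate number as a block, edgeR 4.0.16 (quasi-likelihood) and DESeq2 1.42.0 on the recovered reads, median-centered libraries, no trend, a separate fit of each population, and leaving out each library. CPM without TMM factors were added after seeing the data. Scripts were tested on simulated data. A limit of 3 reads was used for values of 0, which covers counting error only.

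The 10 genes and the pathway and marker lists were chosen with earlier results of these data known. Named were the 10 genes, pathway genes that passed in a comparison, the 2 genes per pathway list with the largest change in each genotype comparison, the genes that check the labels, and the 2 genes most like each of the 10 with a mean CPM of at least 5. A few genes that this rule or the lists hold are included in the counts but not reported here by name. The marker lists were neutrophil, monocyte or macrophage, dendritic cell, B cell, T or NK cell, erythroid, megakaryocyte or platelet, mast cell or basophil, and stem and progenitor genes. Lengths are those of the principal transcript in GENCODE M21 (GRCm38), chosen in place of the union of exons after values were seen. Near-identical transcripts were sought with BLAST 2.17.0 (90% identity over 200 bases), and promoter sequences were taken from RefSeq (GRCm38.p6).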

Additional observations from a re-analysis of the deposited data

Results flagged for a closer look

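The genotype effect on Ripk3 itself differed between the populations, with a difference of the log2 fold changes (LSK minus LK) of -2.40 (adjusted p = 0.0343, limma). Over 17 alternatives it ran from -2.93 to -1.86 with adjusted p of 7.18e-06 to 0.342, and passed in 7. All 4 Ripk3-KO libraries were below all WT libraries in both populations.

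The neutrophil marker S100a8 differed in the same test by 1.23, with log2 fold changes of 1.55 in LSK and 0.32 in LK cells. Over 17 alternatives it ran from 0.99 to 1.47 with adjusted p of 0.000416 to 0.348, and passed in 7. None of the 10 inflammasome and pyroptosis genes differed in this test.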

How the results depend on the processing

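Il18 passed in LSK against LK cells of both genotypes under all 17 alternatives, and 0 of the 10 genes passed by genotype under any alternative. The count of members passing between populations was 2 in WT with median-centered libraries (Pycard, -0.55) and 2 in Ripk3-KO without TMM factors (Casp4, 1.69). Signs turned for small estimates: by genotype in LSK cells with median-centered libraries for Aim2 (-0.0723) and Gsdmd (-0.059), between populations in WT without TMM factors for Casp1 (0.027) and Gsdmd (0.022), and in Ripk3-KO for Gsdmd with DESeq2 (0.027), Casp1 with median-centered libraries (-0.084), and Pycard (0.27) and Gsdmd (0.24) without TMM factors. The cause was not tested. Over all 983 alternatives of single members, 940 kept direction and call, 41 turned sign and 2 gained a call.

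When 1 library was left out, log2 fold changes by genotype in LSK cells ran from -0.47 to 0.72 for Nlrc4, -0.20 to 0.27 for Aim2, -0.48 to 0.45 for Il18, -0.32 to 0.42 for Gsdmd and -1.44 to 0.30 for Il1rn. In LK cells they ran from -0.088 to 0.54 for Casp1, -0.28 to 1.08 for Nlrc4, -0.97 to 0.056 for Dfna5, -0.45 to 1.40 for Casp12 and -2.04 to 0.24 for Nlrp12. Over both populations they ran from -0.077 to 0.60 for Nlrc4, -0.69 to 0.089 for Il1rn and -0.30 to 0.074 for Gsdmd, and the difference of the effects from -0.95 to 0.41 for Nlrc4, -0.35 to 0.17 for Nlrp3, -0.044 to 0.70 for Gsdmd and -1.13 to 0.43 for Il1rn. LSK against LK gave -0.79 to 0.012 for Casp1 and -0.037 to 0.46 for Casp4 in WT, and -0.061 to 0.18 for Casp1, -0.46 to 0.31 for Gsdmd and -0.12 to 0.018 for Pycard in Ripk3-KO. An arm left with 1 library was assumed to vary like the other groups.

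Counts over all genes moved more: 99 to 616 by genotype in LSK cells, 3 to 170 in LK cells, 38 to 520 over both, 2 to 154 for the difference, and 1502 to 4230 (WT) and 1489 to 3472 (Ripk3-KO) between populations. Libraries with the same replicate number showed no shared deviation, with correlations of the replicate differences between groups of -0.145 to 0.051 over 15901 genes. This cannot tell whether LSK and LK cells came from the same mice. With the replicate block the members called stayed at 0 in each genotype comparison and at 1 (Il18) between populations, and of the named pathway genes Tab2 (0.88) lost its call in Ripk3-KO. With 2 libraries per group, many 95% intervals by genotype in LSK cells reached beyond 2-fold in at least 1 direction. These were the intervals of Casp1, Casp4, Il18, Nlrp3, Nlrc4, Il1b and Il1rn.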
